A study of Macaca mulatta with 8 samples.

Results

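The loci of 10 genes of WNT signalling were described in cultured cortex cells of the rhesus macaque: the ligand genes WNT7A and WNT7B, the receptor gene FZD8, the secreted inhibitor gene SFRP1, the genes of β-catenin (CTNNB1) and of its antagonist AXIN2, the transcription factor genes LEF1, TCF7L1 and TCF7L2, and the cyclin gene CCND1. A locus was taken as the gene body and the 5 kb upstream of it in the NCBI annotation of Mmul_10, and every region there with a macaque peak was kept. This gave 73 of the 72358 regions with such a peak, at 10 of 21122 protein-coding genes. The assay was ATAC-seq, which reads out open chromatin through the cuts of a transposase, at post-conceptional days 50, 60, 80 and 85 (E50, E60, E80 and E85). The primary cells came from frozen cortical tissue and were grown on laminin in a progenitor-enriching medium with FGF2, EGF and BDNF, with the CEPT cocktail at plating. Each stage had 1 culture and 2 technical libraries of it, and the deposited table gives 1 peak set a stage. The values below are calls or counts of calls: a stage's call is given to any region with 1 or more of its peaks. Stages could not be tested against each other, since none has a second culture. In such bulk samples, fewer cells with a region open and less opening per cell cannot be told apart.

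WNT ligands bind Frizzled receptors at the cell surface. The receptor complex then halts a cytoplasmic destruction complex, built on AXIN proteins, that degrades β-catenin, and β-catenin moves to the nucleus. There it binds TCF and LEF factors on DNA and turns on target genes. In the developing cortex the pathway is known to promote the self-renewal of radial glia, the progenitors that line the ventricle. SFRP1 and similar secreted proteins bind the ligands and hold them off their receptors.

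The sets of called peaks differed in size, E50 having 19833 peaks, E60 61956, E80 60278 and E85 30701, so only E80 and E60 had sets of like size. The culture was checked against lists of marker genes. Over all protein-coding genes, 44.3%, 64.7%, 63.2% and 53% had a promoter call at E50, E60, E80 and E85. Of 12 radial glia and progenitor genes, 11, 12, 12 and 11 had one at these stages, and of 8 neuron genes 2, 6, 5 and 2 did. Of 5 astrocyte genes 4 had one at each stage, and of 5 oligodendrocyte lineage genes 2, 3, 3 and 3. For 6 microglia genes, no stage called a promoter. Of their loci 3 held a region, and of these 4 regions 1, 4, 4 and 1 were called at E50, E60, E80 and E85. Of 6 genes of the cortical hem and choroid plexus, which are sources of other WNT ligands, 0, 2, 1 and 1 had one, and the choroid plexus gene TTR had no region. Of 6 endothelium and mural cell genes 1, 3, 2 and 1 had one, and of 4 mesenchyme genes 0, 1, 1 and 1. What part any of these cells have in the calls below was not tested.

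The WNT loci were called most often at E60 and least often at E50, as were all regions. Of the 73 regions, E50 had 20 called (27.4%, exact Clopper-Pearson 95% interval 17.6 to 39.1), E60 had 61 (83.6%, interval 73 to 91.2), E80 had 54 (74%, interval 62.4 to 83.5) and E85 had 34 (46.6%, interval 34.8 to 58.6). Over all 72358 regions these shares were 26%, 82.8%, 80.3% and 40.1%, each inside the interval of the WNT loci. Intervals cover counting error alone, and regions of 1 locus are not independent.

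Most regions followed a few patterns of stages. At the WNT loci 18 regions were called at E60 and E80 alone, against 29.4% of all regions, 16 at all 4 stages (23.5% of all regions), 12 at E60 alone (16.4%) and 7 at E80 alone (13.3%). A further 11 were called at every stage but E50 (15.1%, against 12.1% of all regions). Of the rare patterns, 3 regions were called at E60 and E85 alone and 2 at E50 and E85 alone, patterns of 0.58% and 0.63% of all regions. One region was called at E50 alone (0.315% of all regions) and 1 at E85 alone (1.34%), both at AXIN2.

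**Figure D1:**
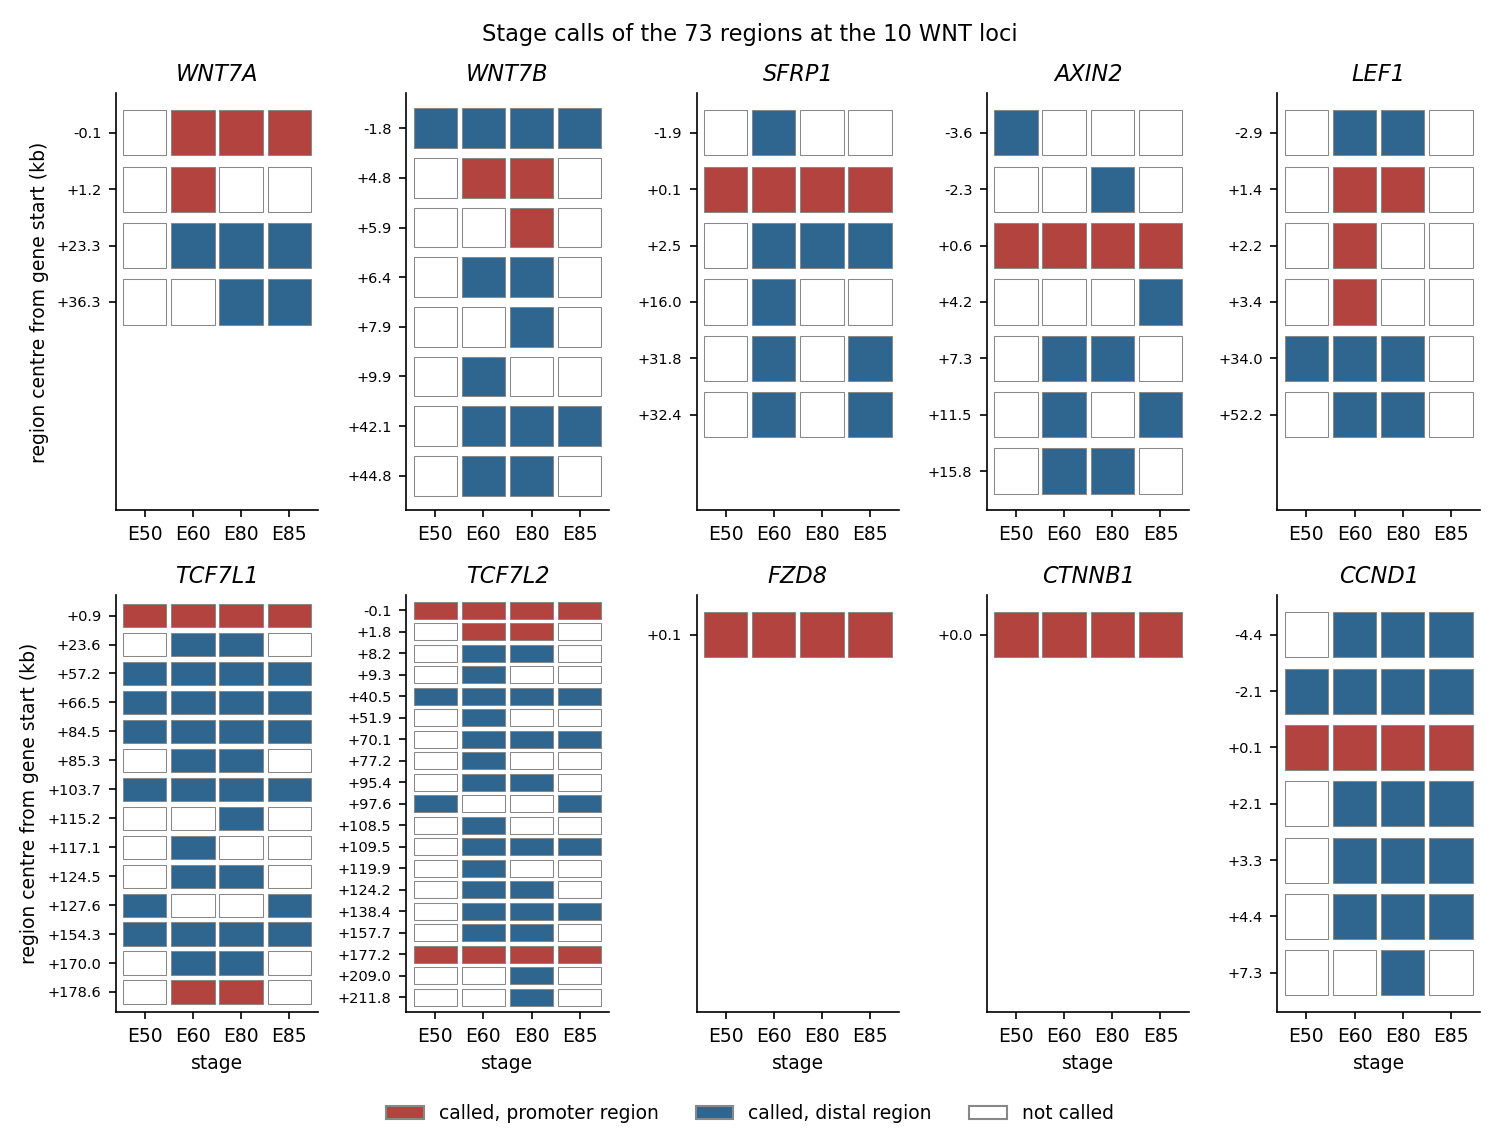
Stage calls of the 73 regions at the 10 loci, with 1 row per region in order along the gene and its distance from the gene start in kb. Filled squares are calls, red for promoter regions and blue for distal ones. FZD8 and CTNNB1 have 1 region each, called at all 4 stages, and LEF1 has no call at E85.

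Promoter regions were those within 1000 bp of an annotated transcription start of any protein-coding or lncRNA gene, and all others are called distal. The WNT loci held 17 promoter and 56 distal regions, and the distal ones were 48 intronic, 1 exonic and 7 intergenic regions. Regions far from genes could not enter by the rule, which fixes most of this makeup. Of the promoter regions 8, 16, 14 and 9 were called at E50, E60, E80 and E85, against 53.7%, 94.2%, 90.1% and 67.7% of all promoter regions. Of the distal regions 12, 45, 40 and 25 were called, against 17.7%, 79.4%, 77.4% and 31.7% of all distal regions. At E85 the distal share of the WNT loci was 44.6% (interval 31.3 to 58.5), and the share over all distal regions lay just inside its lower bound. The own promoters of all 10 members were called at both E60 and E80, against 64.7% and 63.2% of all protein-coding genes. At E50 the promoters of 7 members were called (44.3% of all genes), with WNT7A, WNT7B and LEF1 missing. At E85 the promoters of 8 were called (53% of all genes), with WNT7B and LEF1 missing. The 7 members called at all 4 stages stand against 42.7% of all genes.

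**Figure D2:**
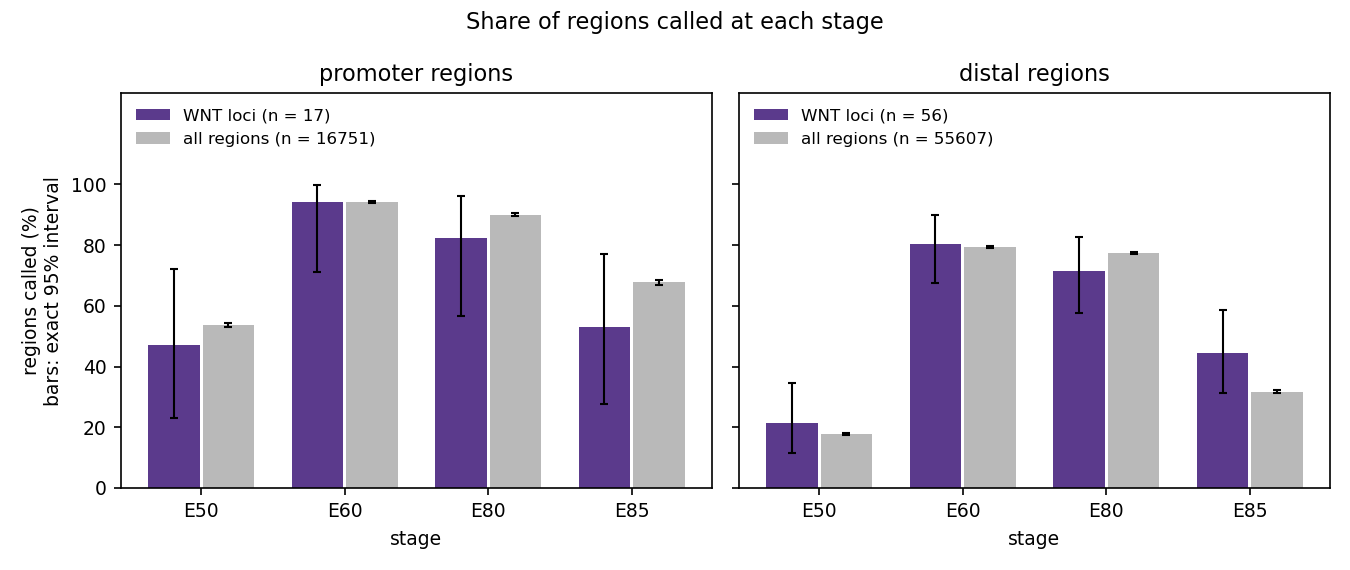
Share of regions called at each stage (%), for promoter regions on the left and distal regions on the right, with the WNT loci in purple and all regions in grey. Error bars are exact 95% intervals for counting error. In all 8 pairs the grey bar lies inside the interval of the purple one.

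The ligand genes WNT7A and WNT7B are expressed by cortical progenitors and neurons, and neither had its promoter called at E50. WNT7A lies on chromosome 2 from 145213924 to 145270951, on the minus strand, and held 4 regions. None was called at E50, and 3 each were called at E60, E80 and E85. The region over its start, chr2:145270325-145271848, was 1524 bp wide and was called at E60, E80 and E85. A second promoter region, chr2:145269432-145270013, lay 938 bp inside the gene and was called at E60 alone. In the introns, a region centred 23.3 kb from the start was called at E60, E80 and E85, and one 36.3 kb from it at E80 and E85 alone.

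WNT7B lies on chromosome 10 from 5524265 to 5580853, on the plus strand, and has 2 annotated starts. It held 8 regions, of which 1, 6, 7 and 2 were called at E50, E60, E80 and E85. No region lay within 1000 bp of its outer start. The nearest, chr10:5522070-5522940, ended 1325 bp upstream of that start and was called at all 4 stages. With a promoter window of 2000 bp, WNT7B would count as called at every stage. Around the inner start, chr10:5528817-5529248 was called at E60 and E80 and chr10:5529979-5530365 at E80 alone. The introns held 5 more regions: a region at 7.9 kb called at E80 alone, one at 9.9 kb called at E60 alone, one at 42.1 kb called at E60, E80 and E85, and those at 6.4 and 44.8 kb called at E60 and E80.

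FZD8, which encodes a Frizzled receptor, had a single wide region. It lies on chromosome 9 from 36598141 to 36601288, on the minus strand. The region chr9:36598600-36603807 was 5208 bp wide, covered the start and most of the gene, and held 3 peaks each at E50 and E85 and 2 each at E60 and E80. It was the widest region of the 10 loci, whose median width was 468 bp (474 bp over all regions).

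SFRP1 kept its promoter call at all 4 stages, and its other calls were mostly of E60. It lies on chromosome 8 from 41844693 to 41888326, on the minus strand. Of 6 regions, 1, 6, 2 and 4 were called at E50, E60, E80 and E85. The promoter region chr8:41887495-41889051 was called at every stage, and an intronic region at 2.5 kb at E60, E80 and E85. A neighbouring pair of intronic regions, chr8:41855688-41856073 and chr8:41856235-41856817, lay about 32 kb into the gene. Both were called at E60 and E85 and neither at E80, the set between them in age. An intronic region nearer the start, chr8:41872139-41872446, and one 1.9 kb upstream were called at E60 alone. SFRP1 thus had 0 regions called at E80 and not at E60, against 4 called at E60 and not at E80.

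CTNNB1, which encodes β-catenin, had 1 region at its locus on chromosome 2 from 97167418 to 97208446, on the plus strand. The promoter region chr2:97166607-97168312 was 1706 bp wide and held 1 peak at each stage. No distal region was called within the gene or its 5 kb upstream.

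AXIN2 encodes a scaffold of the destruction complex and is itself a known target of the pathway, so that it serves as feedback. The gene lies on chromosome 16 from 61924121 to 61957598, on the minus strand, and has 4 annotated starts within its promoter region. Of 7 regions, 2, 4, 4 and 3 were called at E50, E60, E80 and E85. The promoter region chr16:61955754-61958166, 2413 bp wide, was called at every stage, and no distal region was called at more than 2 stages. Intronic regions at 7.3 and 15.8 kb were called at E60 and E80, and one at 11.5 kb at E60 and E85. A region at 4.2 kb was called at E85 alone. Upstream, a region at 2.3 kb was called at E80 alone and chr16:61960927-61961487, at 3.6 kb, at E50 alone.

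The AXIN2 sequences are shown because its regions held more matches to the TCF/LEF motif than those of any other of the 10 loci. The motif was searched as CTTTGAA or CTTTGAT on either strand over whole regions. All sequences here were read from the Mmul_10 (rheMac10) genome and run 5′ to 3′ on the strand of the gene, with 20 bases on either side of a match or pair of matches and the match in capitals. The promoter region held 5 matches, the intronic regions at 15.8, 11.5 and 7.3 kb held 1 each, and the 3 regions called at 1 stage alone held none. Of the 5 promoter matches, 4 are shown.
AXIN2 promoter, chr16:61957129-61957386 (minus strand): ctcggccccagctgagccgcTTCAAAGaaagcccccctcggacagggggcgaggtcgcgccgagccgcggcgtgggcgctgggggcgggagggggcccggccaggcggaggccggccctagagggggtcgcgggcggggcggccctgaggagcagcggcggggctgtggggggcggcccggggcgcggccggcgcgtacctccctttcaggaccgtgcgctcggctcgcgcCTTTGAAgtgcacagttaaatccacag
AXIN2 promoter, chr16:61956659-61956725 (minus strand): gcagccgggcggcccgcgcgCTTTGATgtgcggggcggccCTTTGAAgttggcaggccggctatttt
AXIN2 intron, chr16:61950161-61950207 (minus strand): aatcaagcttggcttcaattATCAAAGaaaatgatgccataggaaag
AXIN2 intron, chr16:61945980-61946026 (minus strand): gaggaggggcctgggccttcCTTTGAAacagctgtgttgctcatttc
AXIN2 intron, chr16:61941834-61941880 (minus strand): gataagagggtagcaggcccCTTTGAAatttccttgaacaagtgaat

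The matches of the AXIN2 promoter lay near its starts: 64 and 84 bp upstream of one start, 179 bp upstream of another, and 77 and 235 bp downstream of the outermost. This promoter region was picked out for its count, so the count is a description. Of all 72358 regions 19 held 5 or more matches (0.0263%), and all 19 were at least 2000 bp wide, among 1992 of that width. A match is a run of letters and does not show that a factor was bound.

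LEF1, a DNA-binding partner of β-catenin whose gene is itself known as a target of the pathway, had no region called at E85. The gene lies on chromosome 5 from 106411810 to 106535836, on the minus strand, with 5 annotated starts. Its 6 regions were called 1, 6, 4 and 0 times at E50, E60, E80 and E85. The E85 set held 30701 peaks, against 61956 in the E60 set, and what part this has in the missing calls was not tested. Of its 3 promoter regions, chr5:106534074-106534866 was called at E60 and E80, and chr5:106533334-106533904 and chr5:106532142-106532753 at E60 alone. The E50 call was at an intronic region 34.0 kb from the start, which was also called at E60 and E80. The upstream region chr5:106538181-106539191 and an intronic region at 52.2 kb, both called at E60 and E80, held the 3 TCF/LEF matches of the locus, shown here because they lie outside its promoter regions.
LEF1 upstream, chr5:106538983-106539201 (minus strand): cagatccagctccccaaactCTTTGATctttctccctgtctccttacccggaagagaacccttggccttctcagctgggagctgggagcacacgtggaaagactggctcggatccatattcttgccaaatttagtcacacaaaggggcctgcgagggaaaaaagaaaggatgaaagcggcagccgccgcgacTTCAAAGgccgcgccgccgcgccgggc
LEF1 intron, chr5:106483579-106483625 (minus strand): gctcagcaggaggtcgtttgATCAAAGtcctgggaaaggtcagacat

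TCF7L1 and TCF7L2 encode TCF factors that bind the same motif, TCF7L1 being best known as a repressor of WNT targets. They held the most regions, 14 and 19, while the median over all protein-coding loci was 1 and the median of the 10 members 6.5. Of all loci, 464 held as many as TCF7L1 or more, and 240 as many as TCF7L2 or more. Both genes are long, 179.7 and 218.3 kb, and per 100 kb of locus they held 7.58 and 8.51 regions, against 38.4 at CCND1 and 2.17 at CTNNB1.

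TCF7L1 was the member with the most calls at E50. It lies on chromosome 13 from 23173956 to 23353606, on the minus strand, and 7, 12, 12 and 7 of its 14 regions were called at E50, E60, E80 and E85. The promoter region chr13:23351249-23354163, 2915 bp wide, and 5 intronic regions, between 57.2 and 154.3 kb from the start, were called at every stage. The intronic region chr13:23225756-23226289 was called at E50 and E85 alone. A region at 117.1 kb was called at E60 alone and one at 115.2 kb at E80 alone. The region chr13:23174730-23175303 lay at the 3' end of TCF7L1 and also in the locus of the neighbouring gene LOC694896, and was called at E60 and E80. No start of a protein-coding gene lay within 1000 bp of it, so it counts as a promoter region through an lncRNA start.

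TCF7L2 had the largest number of calls specific to E60. It lies on chromosome 9 from 113474926 to 113693230, on the plus strand, and 4, 16, 13 and 7 of its 19 regions were called at E50, E60, E80 and E85. The region over its main starts, chr9:113474306-113475301, was called at all 4 stages, and the neighbouring promoter region chr9:113475738-113477645 at E60 and E80. Further starts lie inside the gene, and the region over one of them, chr9:113651905-113652365 at 177.2 kb, was called at all 4 stages. Of the 16 intronic regions 5 were called at E60 alone, at 9.3, 51.9, 77.2, 108.5 and 119.9 kb. The 2 regions nearest the 3' end, at 209.0 and 211.8 kb, were called at E80 alone. The intronic region chr9:113572300-113572748 was called at E50 and E85 alone, as was the one at TCF7L1.

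**Figure D3:**
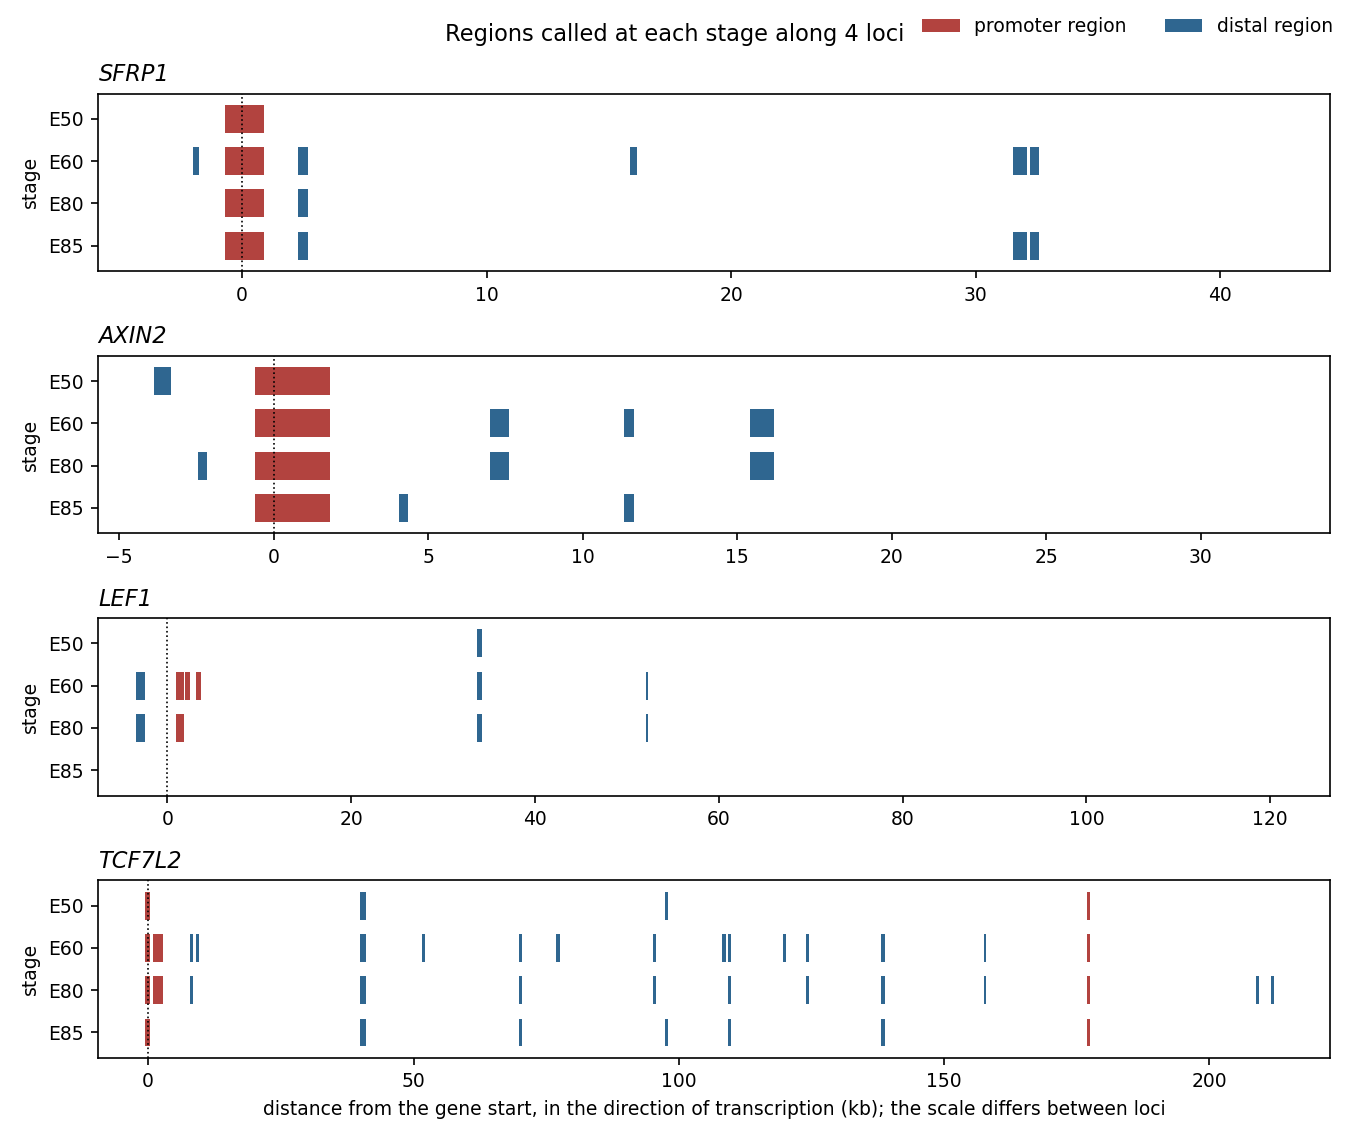
Regions called at each stage along SFRP1, AXIN2, LEF1 and TCF7L2, by distance from the gene start in kb in the direction of transcription. Bars mark region centres and widths, with narrow ones widened to 1 part in 400 of the locus to be seen. SFRP1 has a pair of intronic regions called at E60 and E85, LEF1 has none at E85, and the 2 regions at the 3' end of TCF7L2 were called at E80 alone.

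CCND1, the gene of cyclin D1 that drives cells from G1 into S phase, was a dense locus with few differences between the 3 later stages. The gene lies on chromosome 14 from 5154677 to 5167891, on the minus strand, and 2, 6, 7 and 6 of its 7 regions were called at E50, E60, E80 and E85. Together they covered 31.3% of the locus, against 63.9% at FZD8, a gene of 3.1 kb, and 5.08% at the long TCF7L2. The promoter region chr14:5167114-5168502 and the upstream region chr14:5169349-5170649 were called at all 4 stages. The other upstream region, at 4.4 kb, and the regions at 2.1, 3.3 and 4.4 kb in the gene were called at E60, E80 and E85. One region, at 7.3 kb, was called at E80 alone. The promoter region held 2 TCF/LEF matches, shown because the gene is a known target of the pathway. They lay 31 bp upstream and 505 bp downstream of the start.
CCND1 promoter, chr14:5167899-5167945 (minus strand): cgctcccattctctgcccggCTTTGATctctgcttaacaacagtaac
CCND1 promoter, chr14:5167363-5167409 (minus strand): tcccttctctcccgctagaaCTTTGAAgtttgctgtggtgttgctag

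The comparison of E80 with E60 is the one in which set size differs little. At the WNT loci 8 regions were called at E80 and not at E60 (14.9% of all regions), and 15 at E60 and not at E80 (17.4% of all regions). E80-specific regions were thus 34.8% of the 23 (exact 95% interval 16.4 to 57.3), and 46.1% over all regions, a value inside the interval. TCF7L2 had 2 E80-specific and 5 E60-specific regions, SFRP1 0 and 4, and LEF1 0 and 2. WNT7B had 2 and 1, and CCND1 1 and 0. WNT7A, AXIN2 and TCF7L1 each had 1 and 1, and FZD8 and CTNNB1 had none of either. More E60-specific regions were found at 3 members and more E80-specific ones at 2, and over all loci with a region these shares were 20.2% and 17.2%. Without SFRP1 the E80-specific share was 42.1%, and without WNT7B it was 30%, the range over each member left out. Among distal regions alone it was 36.8%, against 47.4% of all such distal regions, and 1 of the 4 specific promoter regions was of E80, against 32.3%.

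**Figure D4:**
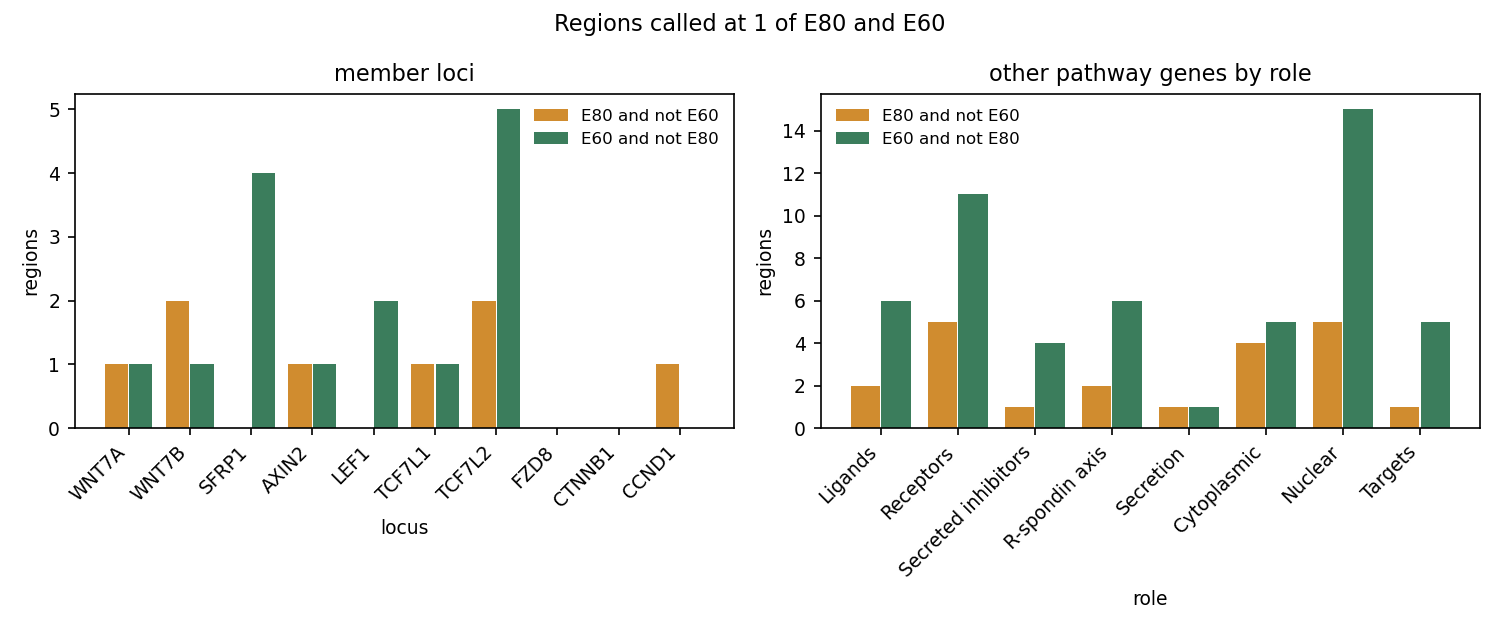
Number of regions called at E80 and not at E60 (orange) and at E60 and not at E80 (green), for each of the 10 loci on the left and for 8 roles of other pathway genes on the right. TCF7L2 with 2 and 5 regions and SFRP1 with 0 and 4 show the largest differences among the 10, and the nuclear role with 5 and 15 among the others.

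There were 9 late-only regions, with a call at E80, E85 or both but none before (15.6% of all regions). There were 13 early-only ones, with a call at E50, E60 or both but none after (16.8% of all regions). The late-only share was 40.9% (interval 20.7 to 63.6), and 48.3% over all regions. It follows the E80 and E60 sets: without the E60 culture it was 97.6% at the WNT loci and 99.3% over all regions, and without the E80 culture 5.88% and 4.83%. Between E60 and E50, 44 regions were specific to E60 and 3 to E50, which gives 93.6% (97.4% over all regions). Between E85 and E80, 6 were specific to E85 and 26 to E80, which gives 18.8% (interval 7.21 to 36.4). The share over all regions, 6.31%, lay below that interval. The interval takes regions as independent, though the 6 include the neighbouring pair in SFRP1, and this share was not recomputed under other settings. Between E85 and E60, 4 were specific to E85 and 31 to E60, which gives 11.4% (interval 3.2 to 26.7), with the 7.09% over all regions inside it. Between E85 and E50, 16 were specific to E85 and 2 to E50, which gives 88.9% (interval 65.3 to 98.6), with the 94% over all regions inside it. The 6 called at E85 and not at E80 were the pair in SFRP1, the regions at 4.2 and 11.5 kb in AXIN2 and the intronic regions of TCF7L1 and TCF7L2 that E50 and E85 shared. All 6 were distal.

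By share of regions, matches to the TCF/LEF motif were about as common at the WNT loci together as elsewhere, while single loci differed. Within 150 bp of the region centre, 1 of 17 promoter regions (5.88%) and 5 of 56 distal regions (8.93%) held a match, against 3.93% and 10.4% of all such regions. Over whole regions, 12 of 73 held one (16.4%), against 15.7% of all regions, with 4 of 17 promoter regions (23.5%, against 15.8% of all promoter regions) and 8 of 56 distal ones (14.3%, against 15.6%). Per 10 kb of region, the WNT loci held 3.41 matches and all regions 2.77. In promoter regions these densities were 3.75 and 1.64, and in distal regions 3.13 and 3.54. The AXIN2 promoter region gave 5 of the 9 matches in promoter regions of the WNT loci. AXIN2 had 15.2 per 10 kb, LEF1 7.99, WNT7B 5.23, CCND1 3.51, FZD8 1.92 and TCF7L2 1.76. No match was found in the regions of WNT7A, SFRP1, TCF7L1 and CTNNB1, which says only that these letters are not there. The density is a description over few bases, 52824 at the WNT loci.

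**Figure D5:**
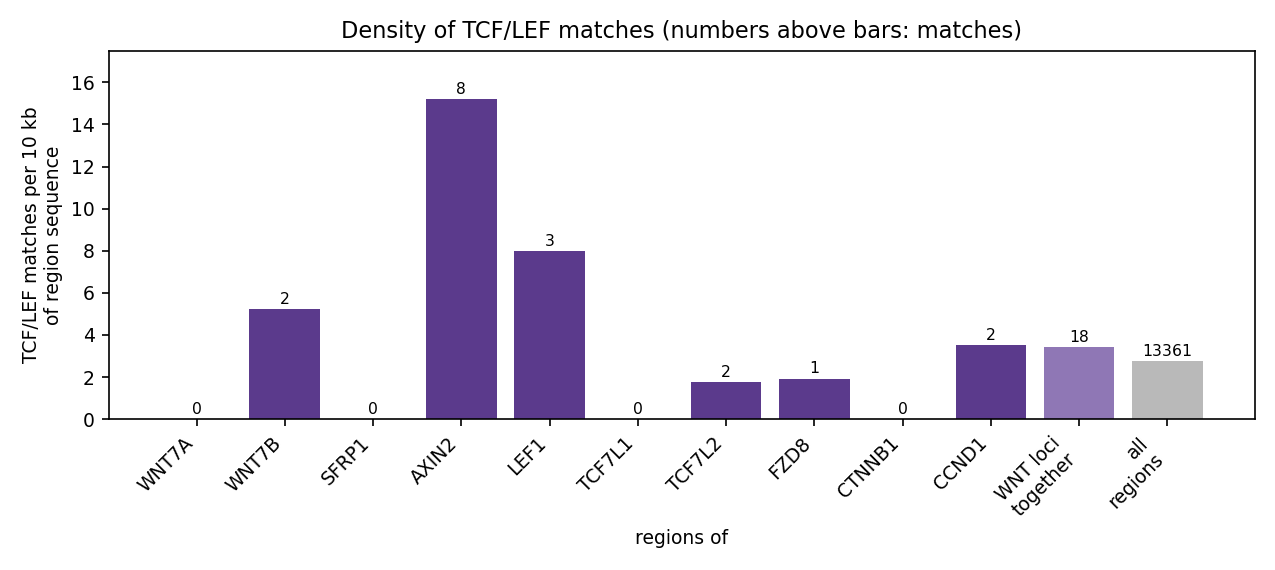
Matches to the TCF/LEF motif per 10 kb of region for each of the 10 loci, for the 10 together and for all regions. AXIN2 stands highest with 15.2, against 2.77 over all regions.

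AP-1 factors, dimers of FOS and JUN proteins, bind another motif, searched as TGACTCA or TGAGTCA, each of which is the other on the opposite strand. No AP-1 match overlapped a TCF/LEF match in these regions. Within 150 bp of the centre it was found in 5 of 9 late-only regions (55.6%, exact 95% interval 21.2 to 86.3) and in 1 of 13 early-only regions (7.69%). Over all late-only and early-only regions the shares were 38.2% and 10.8%, so the WNT loci had the same order as the rest. Promoter regions had a match in 1 of 17 and distal regions in 10 of 56, against 5.53% and 25.7% of all such regions. The late-only matches are shown since they fall at 3 of the 10 loci: WNT7B and AXIN2 with 2 each and TCF7L2 with 1.
WNT7B inner promoter, E80 alone, chr10:5530094-5530140 (plus strand): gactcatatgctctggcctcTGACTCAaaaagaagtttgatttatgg
WNT7B intron, E80 alone, chr10:5532190-5532236 (plus strand): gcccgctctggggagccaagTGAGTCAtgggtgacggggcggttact
AXIN2 intron, E85 alone, chr16:61953344-61953390 (minus strand): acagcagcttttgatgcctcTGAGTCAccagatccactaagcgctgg
AXIN2 upstream, E80 alone, chr16:61959910-61959956 (minus strand): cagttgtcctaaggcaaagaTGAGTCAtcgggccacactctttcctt
TCF7L2 intron, E80 alone, chr9:113686857-113686903 (plus strand): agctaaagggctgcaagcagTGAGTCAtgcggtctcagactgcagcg

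Other genes of the pathway were taken from a list of 81, of which 80 were found by symbol and 75 had a region. Of their 284 regions E50 had 76 called (26.8%), E60 had 259 (91.2%), E80 had 227 (79.9%) and E85 had 121 (42.6%). Of the 284 regions, 21 were specific to E80 (14.9% of all regions) and 53 to E60 (17.4% of all regions). E80 thus had 28.4% of the specific ones (interval 18.5 to 40.1), and 46.1% over all regions, above that interval. TLE1 alone gave 7 of the 53. More E80-specific regions were found at 10 genes and more E60-specific ones at 27, with 43 equal. Over all loci with a region, 17.2% had more E80-specific regions and 20.2% more E60-specific ones. This is a count and no test, and a gene's regions are not independent. Cell type markers mostly leaned the same way: radial glia and progenitor genes had 4 E80-specific and 19 E60-specific regions (17.4%, interval 4.95 to 38.8), and neuron genes 3 and 16 (15.8%, interval 3.38 to 39.6). Astrocyte genes had 4 and 1 (interval 28.4 to 99.5), oligodendrocyte lineage genes 1 and 4 (0.505 to 71.6) and hem and choroid plexus genes 2 and 5 (3.67 to 71). Endothelium and mural cell genes had 3 and 6 (7.49 to 70.1), with 1 gene leaning to E60 and 5 equal. Microglia and mesenchyme genes had none. Most marker lists with such regions thus had more E60-specific ones, astrocyte genes going the other way. Only for the progenitor and neuron lists did the 46.1% over all regions lie above the interval. For the other lists it lay inside. By gene, 6 of 12 progenitor genes leaned to E60 and 1 to E80, and 4 and 1 of 8 neuron genes did, against 20.2% and 17.2% of all loci with a region. GLI3 alone gave 9 of the 19 E60-specific progenitor regions, and MAP2 8 of the 16 neuron ones. What part cell makeup has in this lean was not tested.

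The 17 other ligand genes held 39 regions, with a median of 2, against 6.5 for the 10 members and 1 over all protein-coding loci. Of the 17, 9 had no promoter call at any stage, against 33.1% of all protein-coding genes. WNT8B, known from the cortical hem, had 7 regions and no promoter call. WNT11 had 5, with 0 E80-specific and 2 E60-specific, and WNT10A had 3, with 0 and 1. Of the receptors and co-receptors, LRP5, a co-receptor of Frizzled, had 13 regions, 3 specific to E80 and 1 to E60. The receptor gene ROR1 had 11, with 1 and 2, and ADGRA2 had 6, with 0 and 1. Among the secreted inhibitors DKK3 had 10 regions, with 1 E80-specific and 2 E60-specific. No promoter of the 11 genes was called at E50, against 44.3% of all protein-coding genes. DKK2 had 3 regions, with 0 and 1, and NOTUM, an enzyme that inactivates WNT ligands, had 2, with none of either. ZNRF3, an enzyme that removes Frizzled receptors from the surface, had 14 regions, 5 of them called at all 4 stages, with 0 E80-specific and 1 E60-specific. Of the R-spondin receptor genes, LGR6 had 11 regions with 0 and 1, LGR4 had 6 with 1 and 1, and LGR5 had 4 with 0 and 2. WLS, which carries WNT ligands to the surface, had 8 with 1 and 1, and PORCN, which attaches a lipid to the ligands, had 1 region, called at E60 and E80.

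Among cytoplasmic genes, APC, a part of the destruction complex, had 2 E80-specific and 0 E60-specific regions, and its relative APC2 0 and 3. BTRC, part of the ligase that marks β-catenin for degradation, had 0 and 2. TLE1, a corepressor that binds TCF factors, had the largest difference on the list, 1 E80-specific and 7 E60-specific of 13 regions. BCL9L, a β-catenin cofactor, had 11 regions with 1 of each. CTNNBIP1, an inhibitor of β-catenin binding to TCF factors, had 10 regions with 2 and 1. Of the target genes, TNFRSF19 had 5 regions with 0 and 2, SP5 had 3 with 0 and 2, and MYC had 2 regions, both called at every stage.

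The loci whose shares of calls by stage were nearest to those of the TCF7 genes were found among 883 other loci with at least 10 regions, by Euclidean distance over 4 stages. FRMD5 (0.0862) and PLPP3 (0.0899) were nearest to TCF7L1, and PPP2R2B (0.0278) and KCNQ1 (0.0357) to TCF7L2. PPP2R2B had 5, 19, 15 and 8 of 22 regions called at E50, E60, E80 and E85, against 4, 16, 13 and 7 of 19 at TCF7L2. The other 8 members had too few regions for this measure.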

How the data were processed

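ATAC-seq was done on 8 libraries, 2 technical libraries from each of 4 cultures. Reads were trimmed with cutadapt 4.4, aligned to rheMac10 with Bowtie2 2.5.1 and handled with SAMtools 1.15, per the submitters' processing notes. For the peak caller, its threshold, the Tn5 offset and any pooling, the sources used here give nothing, and each can change which regions count as called. The deposited table holds 112696 merged regions and names the peaks merged into each, with a stage code in the names of stage peaks. The 40338 with lifted peaks alone were left out. Of the 73 WNT regions kept, 49 also held lifted peaks (67.1%, against 63.3% of all kept regions). Widths, centres and motif matches over whole regions are those of the merged region, so not all of its bases need lie in a stage peak. Another 8 deposited value columns carry no sample names and were not used, so the depth per library is unknown. Starts were turned to 1-based. Regions were assigned to loci and to promoters (1000 bp) with the NCBI Mmul_10 annotation, and motifs were searched within 150 bp of centres and over whole regions, with Python 3.11.15, pandas 2.3.3 and pysam 0.24.0. Shares have exact Clopper-Pearson 95% intervals (SciPy 1.17.1). The overlap, stage code and motif steps were tested on simulated data. Members and gene lists were chosen with earlier results of these data known. Other pathway genes were named by rule, as the 3 with the most regions in each role and the 1 with the largest E80 and E60 difference. Alternatives were the locus, the promoter window, the region width, the motif, and each culture or member left out.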

Additional observations from a re-analysis of the deposited data

Results flagged for a closer look

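At the 10 loci, 22 regions held peaks tagged as lifted and no peak of the 4 stages, a signal in data that no comparison here uses. They were 23.2% of the table's regions at these loci, against 35.8% in the whole table. TCF7L2 had 6 of them, WNT7A 4 and CTNNB1, which has 1 region with a stage peak, 3. The labels do not say which samples these lifted peaks come from.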

How the results depend on the processing

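Of 60 values recomputed under other settings, 5 moved: a share counted as moved when it left the exact 95% interval of the reported one, and a count when it changed by over 1.5 times. That bound is wide for few regions, and the share of promoter regions with a TCF/LEF match went unmoved by it at 5.88% within the window and 23.5% over whole regions. With regions of at most 1 kb, 16.9% of the WNT regions were called at E50, against 27.4%. The late-only share was 97.6% without the E60 culture and 5.88% without the E80 culture, against 40.9%, since those cultures supply most of the late-only and early-only calls. With the motif letters reversed, matches were found in 0 of 17 promoter regions (0%) and in 1 of 56 distal regions (1.79%), against 4.32% and 6.7% of all such regions. The motif itself was found in 8.22% of the WNT regions and 8.9% of all regions. The 72 recomputed values chosen after seeing the data, leaving out members or regions shared with other genes, stayed within these bounds. With 50 kb on either side of the genes, 115 regions gave an E80-specific share of 32.3%, and by nearest start 166 gave 38.5%. With the gene-model start alone, 9 members had a promoter call at E60 and at E80. No paired analysis was possible because both libraries of a culture share 1 peak set. Depth per library is unknown, and peak sets of equal size were not compared.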
